A study of Mus musculus with 12 samples.

Results

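The MHC class II genes measured here are H2-Aa, H2-Ab1 and H2-Eb1, which encode chains of the class II molecules themselves, Cd74, H2-DMa and H2-DMb1, which encode their helpers, and Ciita, which encodes their transcriptional activator. They were chosen by name, through the RefSeq accession each probe carries, and not by their values. They are 7 of the 20284 genes with a named probe and have 8 of the 26762 named probes, since H2-Ab1 has more than 1. Of the 7, 6 were tested; Ciita was not, because its probe was well above background on 1 of the 12 arrays. Total RNA of sorted bone marrow cells was labelled with Cy3 and hybridised to one-colour Agilent arrays, 1 array for each of 6 conditions in GMP and in LSK cells. GMP are granulocyte-macrophage progenitors, which give rise to neutrophils and monocytes. LSK cells are the lineage-negative, Sca-1-positive, Kit-positive fraction that holds the stem cells and the earliest multipotent progenitors. The conditions were Tet2KD/KDEzh2-/- double mutant with RAEB (refractory anaemia with excess blasts), double mutant with myelodysplastic/myeloproliferative disease (MDS/MPN), double mutant without a named disease, Ezh2-/-, Tet2KD/KD (Tet2 knockdown) and wild-type.

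All cells, wild-type included, were C57BL/6 and came from recipient mice whose marrow had been repopulated by fetal liver cells. Tet2 encodes an enzyme that oxidises methylated cytosine in DNA, and Ezh2 the catalytic subunit of the Polycomb complex that methylates histone H3 at lysine 27. The age of the mice, the number of mice behind each RNA, whether GMP and LSK cells of a condition share mice, and how either allele was made are not given in the sources used here. Since no group was repeated, a value of a single array has no replicate error, and a standard error (SE) below measures how far an effect differed between conditions or cell types, not between mice.

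MHC class II molecules are pairs of an alpha and a beta chain that show peptides from the endocytic pathway to CD4+ T cells. The invariant chain, Cd74, fills the groove of a newly made pair and guides it to the endosome, where H2-DM, a pair of H2-DMa and a beta chain, exchanges the remnant of Cd74 for a peptide. H2-O, made of H2-Oa and H2-Ob, inhibits H2-DM. B cells, dendritic cells and activated macrophages carry much class II, and transcription depends on Ciita, a co-activator without DNA binding of its own that joins the factors RFX, CREB and NF-Y on the X and Y boxes of class II promoters. C57BL/6 mice do not express the alpha chain gene H2-Ea and therefore have no complete H2-E molecule, although they transcribe H2-Eb1.

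The promoters of class II genes share this X and Y box arrangement, so the stretches that hold it are shown for the 6 genes in which it was found. RefSeq promoter entries (assembly GRCm38.p6) matched 8 of the 13 class II genes looked for, among them 4 of the 7 members: H2-Aa, H2-Eb1, H2-DMa and H2-DMb1. Each line gives 140 bases that end just before the annotated gene start, 5′ to 3′ on the strand of the gene. Capitals mark the core of the X box, here GNAAC, and the core of the Y box, ATTGG.
H2-Aa, chr17:34287824-34287963, minus strand: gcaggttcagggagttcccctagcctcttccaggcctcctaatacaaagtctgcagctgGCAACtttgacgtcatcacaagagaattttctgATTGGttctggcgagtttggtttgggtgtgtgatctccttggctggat
H2-Eb1, chr17:34305727-34305866, plus strand: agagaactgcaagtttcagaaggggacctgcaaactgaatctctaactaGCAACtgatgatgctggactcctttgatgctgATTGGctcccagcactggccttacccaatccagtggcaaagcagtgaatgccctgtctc
H2-DMb1, chr17:34153051-34153190, plus strand: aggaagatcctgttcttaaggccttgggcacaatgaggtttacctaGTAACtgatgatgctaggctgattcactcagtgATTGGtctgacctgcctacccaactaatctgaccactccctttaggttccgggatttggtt
H2-Eb2, chr17:34325535-34325674, plus strand: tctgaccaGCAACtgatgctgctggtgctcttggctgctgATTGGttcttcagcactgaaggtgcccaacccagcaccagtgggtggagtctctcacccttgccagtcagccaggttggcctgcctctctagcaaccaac
H2-Oa, chr17:34092239-34092378, plus strand: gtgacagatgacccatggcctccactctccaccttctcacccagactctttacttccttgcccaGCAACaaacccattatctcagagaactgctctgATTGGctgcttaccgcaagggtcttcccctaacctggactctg
H2-Ob, chr17:34238765-34238904, plus strand: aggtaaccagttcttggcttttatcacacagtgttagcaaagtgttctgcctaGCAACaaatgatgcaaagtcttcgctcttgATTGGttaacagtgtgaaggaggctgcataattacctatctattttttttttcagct

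In these 6 promoters the start of the Y core followed the start of the X core by 30 to 33 bases. The nearest Y core lay 43 bases before the start of H2-Oa and the farthest 100 bases before that of H2-Eb2. Among 32851 promoter windows of 250 bases, 2.98% held GNAAC followed 20 to 40 bases later by ATTGG on either strand, and 1.49% held it on the strand of the gene. This core was written after the letters had been seen and so does not test anything. The fuller core CCNNGNNAC, which overlaps it, followed 25 to 45 bases later by ATTGG, was present in 0.959% of windows on either strand and, among the class II genes, in H2-DMb1, H2-Oa and H2-Ob. Alone, ATTGG was in 33.8% of windows and CCNNGNNAC in 41.1%. Neither pairing was found in the window of H2-DMb2 or in the 2 windows of H2-DMa.

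**Figure D1:**
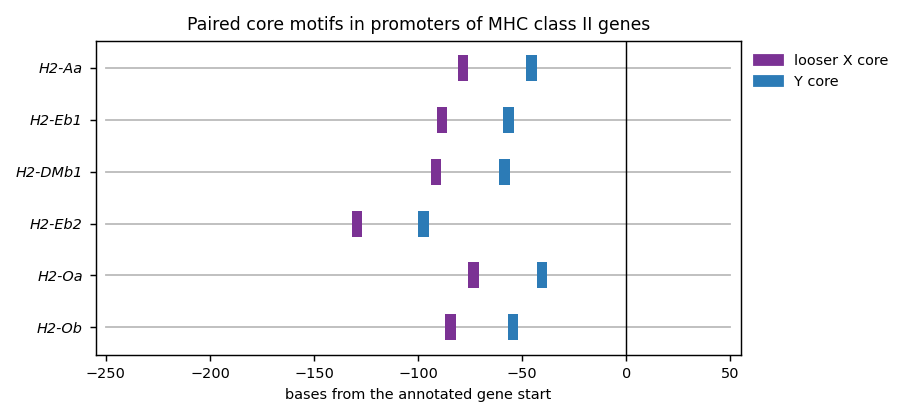
Positions of the looser X core (purple) and the Y core (blue) relative to the annotated gene start (0) in the promoters of 6 MHC class II genes; the grey line is the whole promoter entry. The X core starts lie 76 to 132 bases before the start, each 30 to 33 bases before its Y core.

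Beside the class II genes, the arrays showed the following. The 75th percentile of signal, to which every array was scaled, ran between 168.5 and 389.4 units, and no gene spot was saturated. All values below are log2 signals minus the log2 of that percentile, so that 0 is the array's own 75th percentile and levels of different probes cannot be set against each other. Tet2 itself read -0.64 in GMP and -1.61 in LSK cells with the knockdown, against 1.57 and 0.44 in wild-type, and -1.01 and -0.79 in double mutant, against 1.51 and 0.12 in Ezh2-/- cells. The Ezh2 probe read 2.50 to 3.40 on all arrays; whether it lies in the deleted part is not given, so it checks nothing. All 8 LSK markers tested were lower and all 8 GMP markers higher in GMP. The 8 arrays without disease shared a slide, the 2 diseased LSK arrays another and the 2 diseased GMP arrays the third. Xist was high and Y-linked genes were at background on wild-type and double mutant arrays and on both diseased LSK arrays, and the reverse held on the other 6, so the labels of a disease group joined LSK and GMP samples of opposite sex-linked pattern.

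In GMP the class II chain genes and Cd74 were far lower than in LSK cells. H2-Aa fell by 5.13 on the log2 scale, H2-Eb1 by 6.06 and Cd74 by 4.82, and H2-Ab1 by 1.51. Of the H2-DM chains, H2-DMa was lower by a smaller amount and H2-DMb1 was higher. All 6 members tested passed the threshold in limma (adjusted p under 0.05), 5 lower and 1 higher, where 44.6% of 13674 genes did, 18.9% lower and 25.8% higher. The median difference was -3.16 over the 6 members and 0.16 over all genes tested. Fewer cells of a type and less RNA per cell cannot be told apart in these bulk samples.

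H2-Aa, an alpha chain, read -3.29, -4.72, -4.25, -6.03, -4.81 and -5.41 in RAEB, MDS/MPN, double mutant, Ezh2-/-, Tet2 knockdown and wild-type GMP. In the same order it read 1.06, 0.13, 0.12, -0.58, 1.76 and -0.24 in LSK cells. The groups did not overlap, and only the RAEB array among the GMP was well above background, so the other GMP values are signals near background, whose true level may lie above them. The difference was -5.13 (SE 0.29, 6 arrays against 6, limma adjusted p = 1.47e-05). Without the diseased arrays, where no GMP array was well above background, the means were -5.13 in GMP and 0.27 in LSK cells, and H2-Aa was at least 20.9-fold lower in GMP. "At least" sets the LSK mean against the lowest signals well above background on the GMP arrays. With normexp background correction, which adds an offset of 50 to every signal, the difference was -2.27.

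H2-Ab1, the beta chain that pairs with H2-Aa, was well above background on every array. Its level in GMP ran from 3.18 through a median of 3.58 to 4.20, and in LSK cells from 4.67 through 4.97 to 5.85. The 2 ranges did not overlap, with a difference of -1.51 (SE 0.24, limma adjusted p = 0.00171). Its second probe gave -1.50 (SE 0.24), with levels of 3.00 to 3.97 in GMP and 4.40 to 5.61 in LSK cells.

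H2-Eb1, the beta chain of the H2-E molecule, read -4.20 in wild-type GMP, the one array not well above background, and -1.39 (RAEB), -2.01 (MDS/MPN), -2.60 (double mutant), -3.31 (Ezh2-/-) and -2.45 (Tet2 knockdown) in the other GMP. In LSK cells it ran from 2.48 in Ezh2-/- through a median of 3.17 to 4.82 with Tet2 knockdown. The lowest LSK array was thus far above the highest GMP array. The difference was -6.06 (SE 0.35, limma adjusted p = 1.62e-05). In wild-type cells alone H2-Eb1 was at least 160-fold lower in GMP than in LSK cells, a value of 1 array each.

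Cd74, the invariant chain, ran from -4.65 in wild-type GMP through a median of -3.55 to -1.42 in RAEB GMP. In LSK cells it ran from 0.67 in Ezh2-/- through 1.29 to 2.95 with Tet2 knockdown. The groups did not overlap, and the wild-type and MDS/MPN GMP arrays were not well above background. The difference was -4.82 (SE 0.29, limma adjusted p = 2.13e-05), and it was -3.08 with normexp.

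The 2 chains of H2-DM differed in direction. H2-DMa, the alpha chain, ran from 2.80 through 3.37 to 3.85 in GMP and from 3.55 through 4.01 to 4.28 in LSK cells; the ranges overlapped, but GMP were lower in each of the 6 conditions (-0.61, SE 0.13, limma adjusted p = 0.00733). H2-DMb1, a beta chain, ran from 3.96 through 4.39 to 5.01 in GMP and from 3.66 through 3.97 to 4.31 in LSK cells. It was higher in GMP in each condition, by 0.46 (SE 0.14, limma adjusted p = 0.0305), with overlapping ranges. This call was weak: the sign held in all 22 alternatives and the call in 8 of them, with differences of 0.08 to 0.53 and adjusted p between 0.0157 and 0.582. It was lost with the slide as a block (0.31, adjusted p = 0.0984), among the 8 arrays without disease (0.31, 0.0563), with quantile normalization (0.08, 0.582), with normexp (0.32, 0.0577), without the filter on dim probes (0.46, 0.0570), with the sex-linked pattern as a covariate (0.31, 0.0984), and when the wild-type, Ezh2-/-, double mutant or MDS/MPN array of either cell type was left out (0.35 to 0.49). The other 5 calls held in all 22 alternatives.

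**Figure D2:**
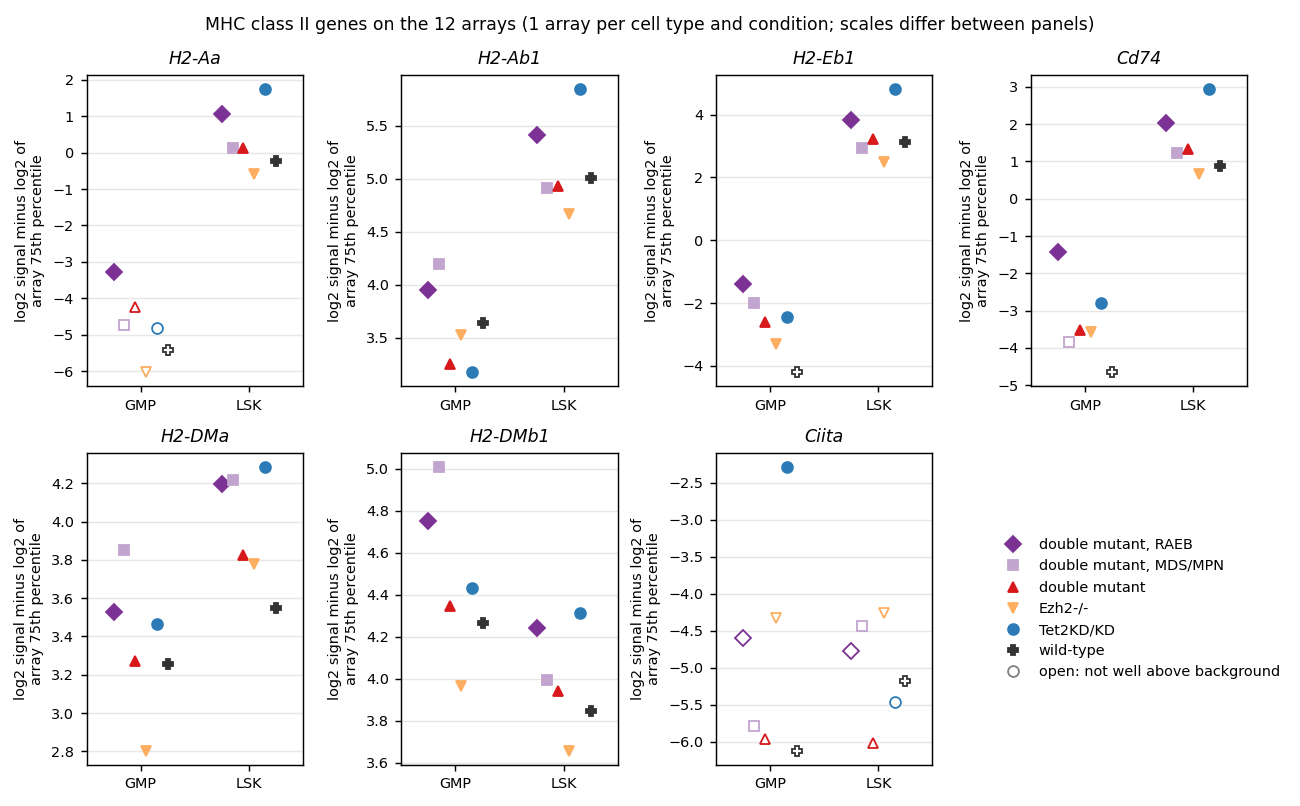
Level of each of the 7 MHC class II genes (log2 signal minus the log2 of the array's 75th percentile) on the 12 arrays, GMP left and LSK right, 1 point per array and condition; open points are not well above background. H2-Aa, H2-Ab1, H2-Eb1 and Cd74 lie lower in all 6 GMP arrays than in any LSK array, while H2-DMa and H2-DMb1 overlap.

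On the probes tested, the members were therefore not lowered by one common amount. Taking the GMP minus LSK difference of each condition as 1 value, that of H2-Aa minus that of H2-Ab1 averaged -3.62 (range -4.31 to -2.70). Against H2-Ab1 it averaged -4.55 for H2-Eb1 (-5.97 to -3.74) and -3.31 for Cd74 (-4.37 to -2.00), and that of H2-DMa minus that of H2-DMb1 averaged -1.07 (-1.38 to -0.71). Each was negative in 6 of 6 conditions, for which an exact two-sided sign-flip test gives p = 0.03125, the smallest it can give, also after adjustment over these 4 pairs. The pairs were chosen after the values had been seen. Since many GMP signals of H2-Aa, and some of H2-Eb1 and Cd74, lay near background, the first 3 sizes are uncertain. All 4 pairs also rest on 1 probe per gene, and a size can depend on the probe. The probes of H2-Ob, outside the members, gave -2.81 and -4.26, while those of H2-Ab1 gave -1.51 and -1.50.

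Ciita, the activator, was not well above background on any LSK array or on 5 of the 6 GMP arrays. The exception was the Tet2 knockdown GMP array at -2.29, against -6.12 to -4.33 on the other GMP arrays and -6.01 to -4.26 on LSK arrays. Ciita thus gave no measured LSK level beside the LSK level of the chains.

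Of the class II genes outside the 7 members, 4 of 6 had a named probe, all 4 were tested and 3 passed, all lower in GMP. H2-Oa, an H2-O chain, ran from 0.82 to 1.82 in GMP and from 2.46 to 3.46 in LSK cells, a difference of -1.41 (SE 0.17, limma adjusted p = 0.00053). H2-Ob, its partner, differed by -2.81 (SE 0.20, limma adjusted p = 3.66e-05), and by -4.26 on its other probe, so the probes agree in direction and not in size. H2-DMb2, the other H2-DM beta chain gene, was well above background on 1 of 6 GMP and 2 of 6 LSK arrays (-0.61, SE 0.20, limma adjusted p = 0.0396). With quantile normalization or normexp 2 of the 4 genes passed. H2-Eb2 (-0.57, SE 0.40, limma adjusted p = 0.278) did not pass.

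The regulators of class II passed about as often as other genes did, and in both directions. Among 19 tested genes of its regulators and of the factors that bind its promoters, 4 rose and 5 fell in GMP (median -0.12), 9 in all, where 44.6% of all genes passed. The interferon-gamma receptor genes Ifngr1 (1.83, SE 0.18) and Ifngr2 (1.10, SE 0.13) and the myeloid factors Irf8 (2.41, SE 0.30) and Spi1 (1.04, SE 0.14) were the 4 that rose. Of 11 genes of peptide loading, turnover and co-stimulation, 5 rose and 2 fell (median 0.38): Ifi30, a lysosomal thiol reductase, was higher by 1.92 (SE 0.16), the protease gene Ctsb by 1.21 (SE 0.15) and Cd80 by 0.79 (SE 0.14), and the co-stimulatory gene Cd86 fell by 2.54 (SE 0.40). Each of these 8 had a limma adjusted p of at most 0.00259.

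MHC class I genes, which serve CD8+ T cells, were well above background on every array. Of 22 tested, 7 fell and 3 rose in GMP, with a median of -0.18, against -3.16 for the class II members. These 10 of 22 are close to the 44.6% of all genes that passed. With quantile normalization 14 fell and 2 rose, and with normexp 9 fell and 2 rose. The genes of the class I trans-activator Nlrc5 (-1.06, SE 0.19) and of H2-T24 (-1.22, SE 0.22) fell, while those of the chaperones Pdia3 (1.59, SE 0.14) and Calr (1.93, SE 0.27) rose (limma adjusted p at most 0.00351). For all genes the scalings also differed: 3523 rose and 2578 fell with the 75th percentile, 2675 and 3098 with quantile normalization, 3243 and 1988 with normexp.

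Markers of other class II-bearing cells were checked in the same arrays. The summed signal of 12 B cell markers, in units of the array's 75th percentile, was 19.0 to 27.7 in GMP and 15.5 to 33.0 in LSK cells. Ms4a1 and Pax5 were never well above background, and Ebf1 was on 1 LSK array only. Of the 9 B cell markers tested, Blnk fell in GMP (-3.86, SE 0.63) and Cd79b rose (0.71, SE 0.11), and the others did not pass. The summed signal of 12 dendritic cell markers was 237 to 389 in GMP and 296 to 432 in LSK cells, with Xcr1 and Cd209a never well above background. Of the 10 tested, 4 fell in GMP: Ccr7 (-4.67, SE 0.23), Itgax (-2.52, SE 0.20), Ccr9 (-3.16, SE 0.33) and Flt3 (-3.75, SE 0.58), the last 2 also found in lymphoid-primed progenitors. The summed signal of 11 monocyte and macrophage markers was 92.2 to 168 in GMP and 10.8 to 37.8 in LSK cells. Of the 9 tested, 3 rose in GMP: Cd14 (5.34, SE 0.38), Adgre1 (4.89, SE 0.50) and Csf1r (2.41, SE 0.22). C1qc, well above background on 2 arrays, fell (-1.58, SE 0.35). Cd79b was the largest part of the B cell sum on every array, Siglech of the dendritic cell sum and Csf1r of the monocyte and macrophage sum. Siglech read 7.62 to 8.56, but its second probe was well above background on 1 LSK array only. The part of B cells, dendritic cells, monocytes or macrophages in the class II difference was not tested. Without the RAEB and Tet2 knockdown LSK arrays, the highest LSK arrays for H2-Aa, H2-Ab1, H2-Eb1 and Cd74, all 6 members still passed (H2-Aa -4.96, H2-Eb1 -5.97, Cd74 -4.93, H2-Ab1 -1.23); this alternative was chosen after seeing the data.

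**Figure D3:**
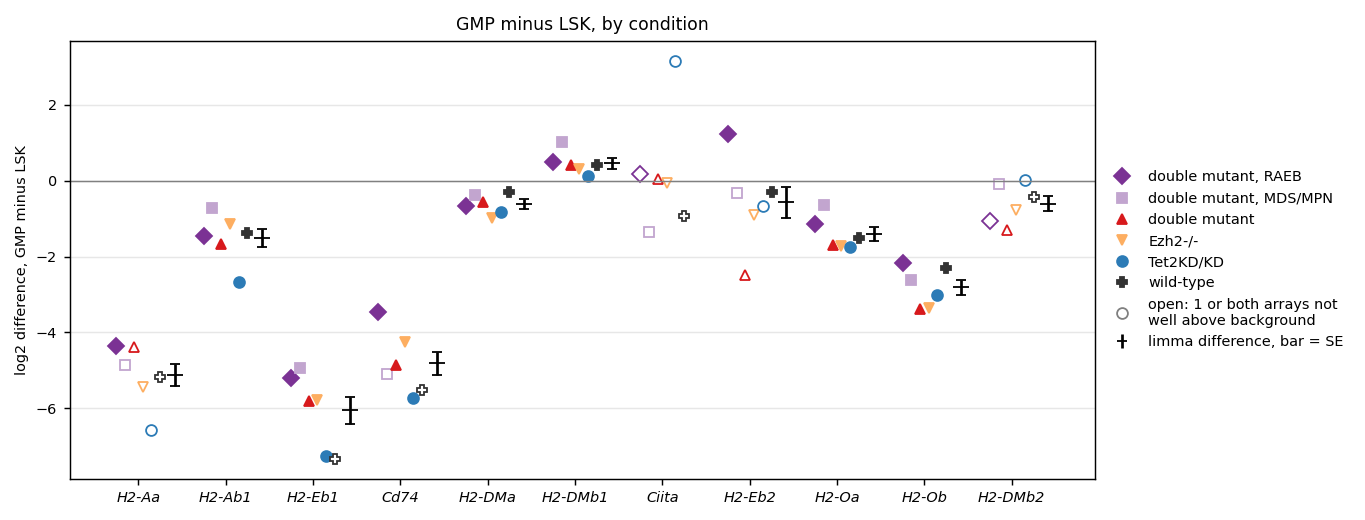
Log2 difference, GMP minus LSK, for the 7 members and 4 other class II genes: 1 point per condition, open where 1 or both arrays were not well above background, and the limma difference with its SE as a bar. H2-Aa, H2-Eb1 and Cd74 lie at -3.45 or below in every condition, whereas H2-DMb1 lies above 0 in every condition.

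The second comparison asks how the genes stood with Tet2 knockdown, in 4 matched pairs of arrays: Tet2 knockdown with wild-type and double mutant with Ezh2-/-, in GMP and in LSK cells. The chain genes H2-Aa and H2-Eb1 and Cd74 read higher with the knockdown in each of the 4 pairs, and H2-DMa and H2-DMb1 likewise by smaller amounts, but none passed the threshold. In limma 0 of the 6 members and 0% of 13680 genes passed. At an unadjusted p under 0.05 there were 5 members, all higher, where 2.65% of genes were higher and 3.08% lower at that level. The median difference was 0.77 over the members, positive for 6 of 6, and 0.02 over all genes, positive for 7600 of 13680.

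H2-Aa read -4.81 in GMP and 1.76 in LSK cells with Tet2 knockdown, against -5.41 and -0.24 in wild-type. In double mutant cells it read -4.25 in GMP and 0.12 in LSK cells, against -6.03 and -0.58 in Ezh2-/- cells. All 4 GMP values are at background, so only the LSK pairs, with differences of 2.00 and 0.71, are measured. The fitted difference was 1.27 (SE 0.32, limma adjusted p = 0.784, 0.508 to 0.998 over the alternatives).

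H2-Eb1 read -2.45 in GMP and 4.82 in LSK cells with Tet2 knockdown, against -4.20 and 3.14 in wild-type, and -2.60 and 3.21 in double mutant, against -3.31 and 2.48 in Ezh2-/- cells. Its 4 differences were 1.75 and 1.69 without Ezh2 loss and 0.71 and 0.73 with it. The fitted difference was 1.22 (SE 0.36, limma adjusted p = 0.818).

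Cd74 read -2.79 in GMP and 2.95 in LSK cells with Tet2 knockdown, against -4.65 and 0.87 in wild-type. In double mutant cells it read -3.52 and 1.34, against -3.58 and 0.67 in Ezh2-/- cells. Its differences ran from 0.06 in the double mutant GMP pair to 2.08 in the LSK pair with wild-type, and the fitted difference was 1.17 (SE 0.40, limma adjusted p = 0.818). H2-DMa (0.37, SE 0.14) and H2-DMb1 (0.33, SE 0.10) were higher in 4 of 4 pairs, by 0.05 to 0.74 and by 0.17 to 0.46.

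Between the wild-type and the Ezh2-/- backgrounds the single pairs differed in size. In the LSK pair of Tet2 knockdown and wild-type, 3 members were at least 2-fold higher (H2-Aa, H2-Eb1 and Cd74), where 2.37% of genes were. In the GMP pair H2-Eb1 (at least 3.34-fold) and Cd74 (at least 2.65-fold) were, each against a wild-type array not well above background, where 1.45% of genes were. Ciita was not among the genes behind that share. It was at least 3.74-fold higher in this pair, through the 1 array on which it was well above background. In both pairs of double mutant and Ezh2-/- cells 0 members were at least 2-fold higher, where 1.39% of genes were in LSK cells and 1.55% in GMP. Double mutant LSK cells had 3 members at least 2-fold lower than Tet2 knockdown LSK cells, H2-Aa, H2-Eb1 and Cd74, where 2.54% of genes were. These are differences between single arrays and have no test. The sex-linked pattern differed between the arrays of every pair, in one direction without Ezh2 loss and in the other with it. This difference in size and the sex-linked pattern therefore cannot be told apart. Over the 4 pairs the pattern is balanced, so as a covariate it could not change the 6 fitted differences, and their being unchanged checks nothing.

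H2-Ab1 took opposite directions in the 2 cell types. With Tet2 knockdown it read 3.18 in GMP against 3.64 in wild-type GMP, and 3.26 in double mutant against 3.52 in Ezh2-/- GMP. In LSK cells it read 5.85 with Tet2 knockdown against 5.01 in wild-type, and 4.93 in double mutant against 4.67 in Ezh2-/- cells. The effect was -0.36 in GMP and 0.56 in LSK cells, a difference of -0.92 (SE 0.38) that did not pass (limma adjusted p = 1.00). For that interaction 0 of 6 members and 0% of genes passed, with 0 members and 1.94% of genes at an unadjusted p under 0.05. The combined effect on H2-Ab1 was 0.10 (SE 0.25, limma adjusted p = 0.947).

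**Figure D4:**
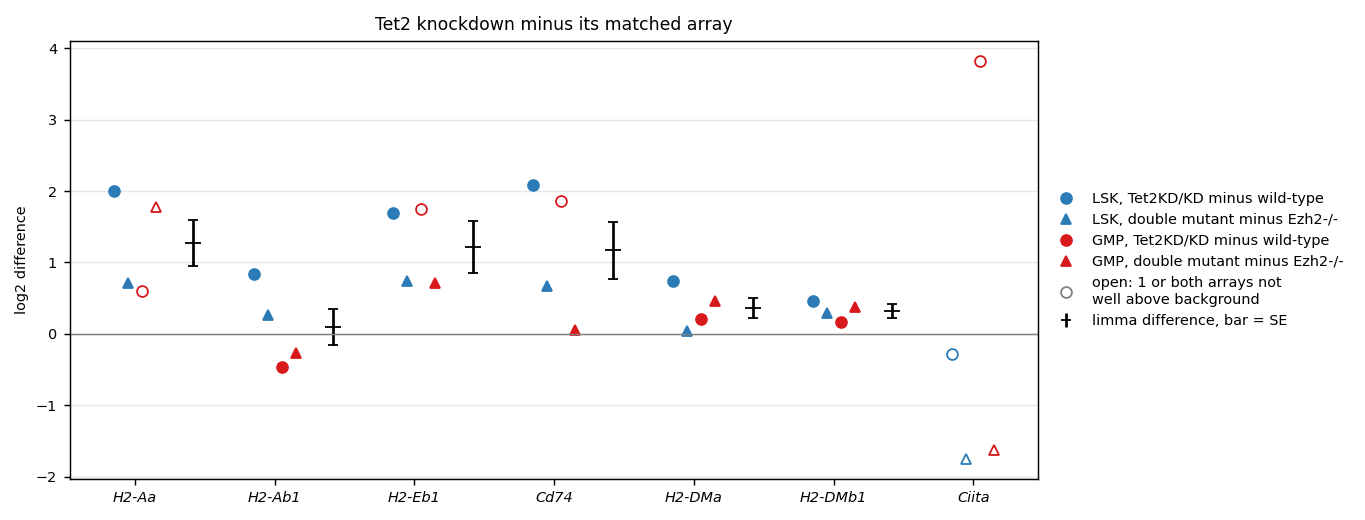
Log2 difference of each member between a Tet2 knockdown array and its matched array, for LSK (blue) and GMP (red) and for cells without (circles) and with (triangles) Ezh2 loss; open points have 1 or both arrays not well above background, and bars are the limma difference and its SE over the 4 pairs. H2-Aa, H2-Eb1 and Cd74 lie above 0 in all 4 pairs, and H2-Ab1 lies above 0 in LSK pairs only.

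Of the other class II genes 0 of 4 passed with Tet2 knockdown, at 0.39 (SE 0.10) for H2-Oa, 0.77 (SE 0.31) for H2-DMb2, 0.18 (SE 0.20) for H2-Ob and -0.74 (SE 0.45) for H2-Eb2. The median was 0.04 over 19 regulators, 0.07 over 11 genes of peptide loading and co-stimulation and 0.20 over 22 class I genes, of which 18 were positive, and 0 passed in each list. In LSK cells the summed class I signal was 1990 with Tet2 knockdown against 1369 in wild-type, and 1633 in double mutant against 1711 in Ezh2-/- cells. In GMP it was 1486 against 1454, and 1689 against 1383. A higher signal in the LSK pair with wild-type was thus not particular to class II genes. The summed B cell marker signal was 21.8 and 15.5 with Tet2 knockdown in GMP and LSK cells, against 23.4 and 15.8 in wild-type. That of monocyte and macrophage markers was 107 and 13.0, against 97.6 and 14.7, and that of dendritic cell markers 389 and 355, against 342 and 432. In the double mutant GMP and LSK arrays, against those of Ezh2-/- cells, the B cell sum was 24.4 and 16.6, against 19.0 and 16.2, the monocyte and macrophage sum 97.9 and 14.0, against 92.2 and 10.8, and the dendritic cell sum 334 and 404, against 368 and 352. The B cell sums and the LSK monocyte and macrophage sums thus differed in direction between the backgrounds. Csf1r was the largest part of each monocyte and macrophage sum, Siglech of each dendritic cell sum and Cd79b of each B cell sum. In GMP Cd79b read 4.22 with Tet2 knockdown against 4.34 in wild-type, and 4.47 in double mutant against 4.06 in Ezh2-/- cells. In LSK cells it read 3.64 against 3.59, and 3.56 against 3.56. Of 9 monocyte and macrophage markers tested 3 were positive with Tet2 knockdown (median -0.18) and 0 passed: Adgre1 (1.06, SE 0.23) and Cd14 (0.74, SE 0.18) read higher, and C1qa (-0.87, SE 0.46) and C1qc (-0.43, SE 0.18) lower.

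With Ezh2 loss, the other genotype in the same 8 arrays, 0 of the 6 members passed, where 0.19% of genes did, with 0 members and 8.78% of genes at an unadjusted p under 0.05. All 6 fitted differences were negative, between -0.51 (SE 0.32, H2-Aa) and -0.22 (SE 0.14, H2-DMa), with a median of -0.35 against -0.00 over all genes. Of the other class II genes H2-Oa differed by -0.51 (SE 0.10, limma adjusted p = 0.180). Single pairs went both ways. Ezh2-/- GMP differed from wild-type GMP by 0.89 for H2-Eb1 and 1.07 for Cd74, both not well above background in wild-type. In LSK cells the same pair differed by 0.23 for H2-DMa. Double mutant LSK cells had 0 of 7 members higher than Tet2 knockdown LSK cells, with -1.61 for both H2-Eb1 and Cd74.

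The third comparison sets RAEB against MDS/MPN, both in double mutant cells, with 1 array of each in GMP and in LSK cells. H2-Aa, H2-Eb1 and Cd74 read higher in RAEB in both cell types, while H2-Ab1, H2-DMa and H2-DMb1 differed by -0.32 to 0.50 in single pairs. In limma 0 of the 6 members and 0% of 13674 genes passed. At an unadjusted p under 0.05 there were 2 members, H2-Aa and Cd74, both higher, where 1.05% of genes were higher and 1.61% lower. The median was 0.44 over the members and -0.07 over all genes.

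Cd74 read -1.42 in GMP and 2.03 in LSK cells in RAEB, against -3.85 and 1.23 in MDS/MPN. The RAEB GMP array was the highest of the 6 GMP arrays for Cd74, and the MDS/MPN GMP array was not well above background. In GMP Cd74 was therefore at least 5.05-fold higher in RAEB. The fitted difference was 1.61 (SE 0.51, limma adjusted p = 0.974). Without the RAEB LSK array it was 2.43 (limma adjusted p = 0.0479), which rests on 1 RAEB array assumed to vary like the other groups, with 362 genes passing in that setting.

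H2-Aa read -3.29 in GMP and 1.06 in LSK cells in RAEB, against -4.72 and 0.13 in MDS/MPN, with a fitted difference of 1.18 (SE 0.50, limma adjusted p = 0.974). H2-Eb1 read -1.39 and 3.81 in RAEB, against -2.01 and 2.93 in MDS/MPN (0.75, SE 0.60). For both genes the RAEB GMP array was the highest GMP array and the RAEB LSK array the second highest LSK array, after Tet2 knockdown. H2-Ab1 read 3.95 in GMP and 5.41 in LSK cells in RAEB, against 4.20 and 4.91 in MDS/MPN, so its directions differed (0.13, SE 0.41). H2-DMa differed by -0.17 (SE 0.23) and H2-DMb1 by -0.00 (SE 0.24).

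In GMP 2 members, H2-Aa and Cd74, were at least 2-fold higher by measured signal in RAEB than in MDS/MPN, where 4.6% of genes were, but the MDS/MPN array was not well above background for either, and against its floor H2-Aa was at least 1.38-fold higher. In LSK cells 0 members were, where 1.5% of genes were. These counts have no test. Among the other class II genes 0 of 4 passed: H2-Eb2 read -2.38 in RAEB GMP, the highest of its 12 arrays, and differed by 1.34 (SE 0.70).

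Markers of other cells also differed between the RAEB and MDS/MPN arrays, not all in 1 direction. The RAEB LSK array had the highest summed B cell marker signal, 33.0, against 17.1 in MDS/MPN LSK cells. In MDS/MPN LSK cells Ebf1 and Igll1 were not well above background: Ebf1 read -3.03 in RAEB against -6.69, and Igll1 0.02 against -5.91. Vpreb1 read 3.14 against -0.28; it and Igll1 are genes of the surrogate light chain of precursor B cells. Pax5 and Ms4a1 were not well above background there. The monocyte and macrophage sum was lower, 30.6 in RAEB and 37.8 in MDS/MPN LSK cells, with Csf1r, Adgre1, Cx3cr1, Cd14 and Fcgr1 each lower in RAEB. The complement genes C1qa and C1qc of the same list read -2.44 and -1.91 in RAEB, against -6.84 and -6.15, not well above background, in MDS/MPN LSK cells. On the GMP arrays the B cell marker sum was 27.2 in RAEB and 27.7 in MDS/MPN, and the monocyte and macrophage sum 168 and 121. In that list Cd14 read 6.21 in RAEB and 3.92 in MDS/MPN GMP, while Cx3cr1 read -2.25 and 1.54, Fcgr1 -2.01 and -0.87, Adgre1 0.26 and 1.01 and Csf1r 6.52 and 6.64. Over both cell types 5 of the 9 markers tested were positive, with a median of 0.01. The co-stimulatory gene Cd83 read 1.01 in RAEB GMP and -3.75, not well above background, in MDS/MPN GMP. The part of such cells in the class II values was not tested.

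**Figure D5:**
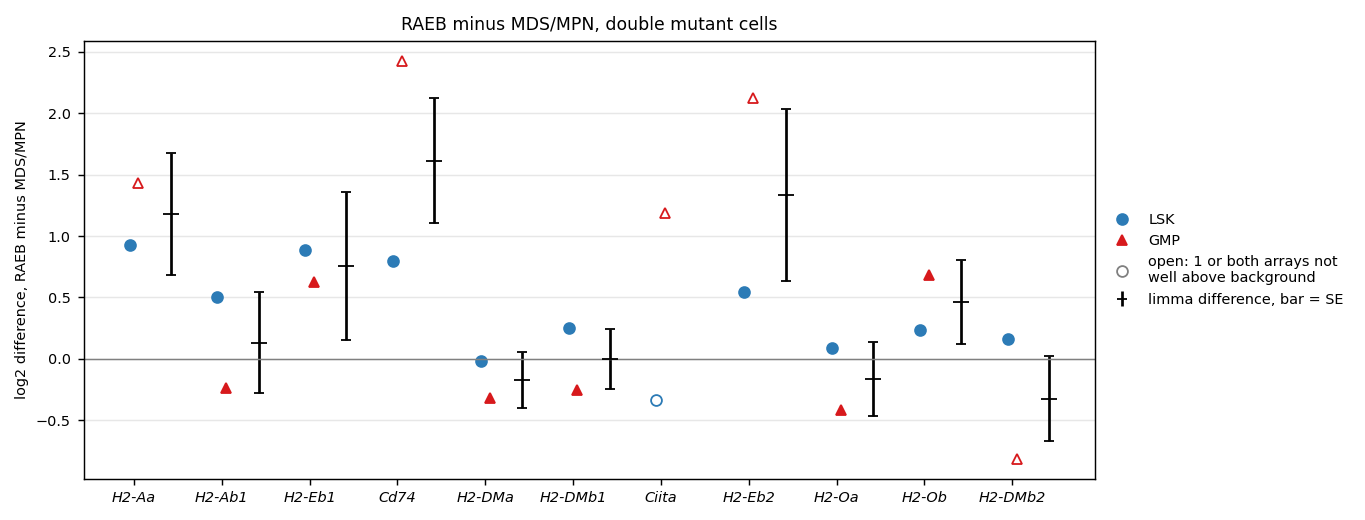
Log2 difference, RAEB minus MDS/MPN, for 7 members and 4 other class II genes in LSK (blue circles) and GMP (red triangles), 1 pair of arrays each; open points have 1 or both arrays not well above background, and bars are the limma difference with its SE. Cd74 differs by 2.43 in GMP and 0.80 in LSK cells, and H2-DMa lies at or below 0 in both.

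Against double mutant cells without a named disease, the fitted differences of the 4 diseased arrays were positive for all 6 members, with a median of 0.46 against 0.10 over all genes. With the sex-linked pattern as a covariate those of H2-Aa (-0.039) and H2-Eb1 (-0.21) were negative. Single arrays went both ways: in MDS/MPN LSK cells H2-Eb1 differed from double mutant LSK cells by -0.28 and Cd74 by -0.11, and in MDS/MPN GMP H2-Aa differed by -0.47 and Cd74 by -0.33. In limma 0 members passed, where 0.00731% of genes did, with 0 members and 13.8% of genes at an unadjusted p under 0.05. The largest were Cd74 at 0.59 (SE 0.44), H2-Eb1 at 0.53 (SE 0.52) and H2-Ab1 at 0.52 (SE 0.36). Here slide and disease cannot be told apart, since no diseased array shared a slide with the others. In LSK cells the summed GMP marker signal was 950 in RAEB and 1332 in MDS/MPN, against 462 in double mutant cells.

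Across the 12 arrays the members moved together to different degrees. After the mean of each cell type was taken from each value, Pearson's r over the 12 arrays was 0.87 between H2-Aa and H2-Eb1, 0.84 between H2-Aa and Cd74, 0.87 between H2-Eb1 and Cd74 and 0.89 between H2-DMa and H2-DMb1. It was 0.61 between H2-Aa and H2-Ab1 and 0.47 between H2-Ab1 and Cd74. These arrays share slides and scaling, and many GMP signals of H2-Aa, and some of H2-Eb1 and Cd74, lay near background. The values are descriptions.

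By the same measure genes were ranked on their likeness to the mean of H2-Aa, H2-Ab1 and H2-Eb1. That mean mostly followed H2-Aa and H2-Eb1. H2-Ab1 itself ranked 180th over the 12 arrays and 309th within cell types, whereas H2-Eb1 ranked 1st and H2-Aa 2nd by both. Over the 12 arrays as they stand, the 6 genes outside those 3 most like the mean were Prx, Lag3, Rab11fip3, St3gal1, Tead2 and Cd74, with r of 0.99 to 0.98, each lower on all 6 GMP arrays than on any LSK array. Lag3, whose protein binds class II, read -3.72 to -2.11 in GMP and 0.67 to 1.64 in LSK cells. Within cell types Anxa5, Pkd1, Itpka, Bcl2l2 and Ncoa4 were among the 6 most like the mean, with r of 0.91 to 0.90. Among the members, by this within-type measure, Cd74 ranked 38th, H2-DMb1 52nd and H2-DMa 785th of 13674 genes.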

How the data were processed

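Gene expression was measured on 12 one-colour Agilent arrays, 1 per cell type and condition. The deposited files of single arrays were written by Feature Extraction 10.7.1.1, per the file headers, and hold a background-corrected processed signal, an intensity on a linear scale, beside median signals of spot and background, also intensities. The deposited flag columns (other) mark control, saturated, outlying and well above background spots. The authors' value table repeated that intensity exactly at all 62976 spots. All columns were used (0 columns left out).

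The log2 processed signal minus the log2 of the array's 75th percentile was averaged over spots of a probe. Probes were named through their RefSeq accession and a gene table of GRCm38.p6 (for names alone, as the arrays were designed on a different build); of 55681 probes 26762 matched 1 symbol. A gene was represented by its brightest probe on average and tested if its signal passed the well above background flag on 2 or more of 12 arrays. Outlying spots were left out, and a gene with one was dropped from that fit; no member had one. Two-sided tests used lmFit and eBayes of limma 3.58.1 (R 4.3.3); p-values were adjusted over all genes by Benjamini-Hochberg, with a threshold of 0.05. GMP and LSK cells, RAEB and MDS/MPN, and diseased and double mutant cells were compared in a model with terms for cell type and condition on 12 arrays. Tet2 knockdown and Ezh2 loss were fitted together on the 8 arrays without disease with cell type. An interaction term gave the Tet2 effect by cell type. Single arrays were compared by counting genes at least 2-fold apart where the brighter signal was well above background. The fits were tested on simulated data with independent noise on each array. Of changes of 2 on the log2 scale, 92% were recovered for GMP and LSK cells (13674 genes), 81% for Tet2 knockdown (13680 genes) and 73% for RAEB and MDS/MPN (13674 genes), with 5, 6 and 9 false calls. Smaller changes, such as the members' fitted differences in the last 2 comparisons, were not simulated, nor were effects shared by a slide or a sex-linked pattern. Motif letters were searched in the 250 bases before each start.

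The alternatives were quantile normalization, normexp (offset 50, on the median signals, since no mean signal was among the columns), the mean of probes, no filter, a stricter filter (6 arrays, or 4 of 8), trend and robust moderation, the sex-linked pattern as a covariate, slide as a block, subsets of arrays and leaving out each array. Named genes were the 7 members, the measured other class II genes, up to 4 genes of each other list with the smallest p, the 6 genes most like the mean of H2-Aa, H2-Ab1 and H2-Eb1, and Tet2. B cell, macrophage and co-stimulation genes named by array were chosen after their values were seen. Some genes that these rules name are not reported here. The members and lists were chosen with earlier results of these data known. The number of arrays limits the precision.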

Additional observations from a re-analysis of the deposited data

Results flagged for a closer look

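The effect of Tet2 knockdown on H2-Ab1 had opposite signs in the cell types, lower in both GMP pairs and higher in both LSK pairs, and the difference between these effects was -0.92 (SE 0.38). It did not pass limma's test of that difference (adjusted p = 1.00). Among 28 groups of arrays and genes checked with Dixon's criterion for 1 array standing apart from the rest of its group, 0 had one.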

How the results depend on the processing

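For GMP against LSK cells no direction changed in 22 alternatives, and 5 or 6 members passed; the member lost was H2-DMb1. For Tet2 knockdown, Ezh2 loss, the Tet2 effect by cell type and diseased against double mutant cells, 0 members passed in any alternative run. For RAEB against MDS/MPN 0 to 1 passed when each array was left out, the 1 being Cd74 without the RAEB LSK array. Signs turned only for differences that had not passed, and the cause was not tested. Leaving out each array, H2-Ab1 with Tet2 knockdown ran from -0.17 to 0.31. The Tet2 effect in GMP minus that in LSK cells ran from -0.91 to 0.59 for H2-Aa, from -0.83 to 0.87 for H2-Eb1, from -0.35 to 0.25 for H2-DMa, from -0.20 to 0.00054 for H2-DMb1 and from -1.37 to 0.55 for Cd74. For H2-Eb1 it was also -0.033 with quantile normalization and -0.73 with normexp, against 0.02. RAEB minus MDS/MPN ran from -0.34 to 0.60 for H2-Ab1 and from -0.34 to 0.33 for H2-DMb1, which was 0.17 with quantile normalization. Diseased minus double mutant ran from -0.095 to 0.81 for H2-Aa, and with the sex-linked pattern as a covariate it was -0.039 for H2-Aa and -0.21 for H2-Eb1. Slide as a block was not run for Tet2 knockdown, Ezh2 loss, the Tet2 effect by cell type or diseased against double mutant cells, where it cannot be estimated. Signals near background limit H2-Aa, Cd74 and Ciita in GMP.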
